A study of Mus musculus with 6 samples.

Results

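The 10 genes described here encode enzymes that make and break down ceramide, the core lipid of the sphingolipids. They are the ceramide synthases Cers2, Cers4, Cers5 and Cers6, the serine palmitoyltransferase subunits Sptlc1 and Sptlc2, the acid ceramidase gene Asah1, the sphingosine kinases Sphk1 and Sphk2, and the sphingosine-1-phosphate lyase gene Sgpl1. Members were chosen by symbol, as the probe sets that the platform annotation gives to exactly 1 symbol. All 10 genes were measured, by 21 probe sets in all, among 18193 genes in the comparison. Each gene is represented by its probe set of highest mean over the 6 arrays. The group of enzymes was put together with the lower level of Cers4 in Cdh1-deficient cells already known, so the differences between the groups are given below as a description, with the values behind them. The lists of other sphingolipid genes were likewise drawn up with earlier results of these arrays known.

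The arrays came from mice that developed B-cell acute lymphoblastic leukaemia driven by N-myc. All donors were of C57BL/6 background and carried Cdh1f/f, a conditional gene-trap allele with a floxed cDNA, on both copies. The Cdh1-deficient group had Mx1-Cre(+)/Cdh1f/f cells and the Cdh1-intact group Mx1-Cre(-)/Cdh1f/f littermates without the Cre transgene, with 3 arrays in each. Both groups received pIpC at 7 to 8 weeks of age, an inducer of interferon that switches on the Mx1 promoter. Their marrow was taken 4 weeks after the last injection and 2 days after 5-fluorouracil at 150 mg/kg. N-myc was delivered with the retroviral vector pMXs-IG. RNA came from GFP-positive marrow mononuclear cells, sorted from each moribund mouse. The Mx1 promoter responds to interferon in many cell types, so deletion is not limited to B cells, and the groups differ in the Cre transgene itself as well as in Cdh1. The Cdh1 of this study is the protein of the mouse gene Fzr1, an activator of the anaphase-promoting complex. Its log2 level was 8.92, 8.04 and 8.92 for Cdh1-intact arrays 1, 2 and 3, and 8.10, 7.73 and 8.22 in Cdh1-deficient cells, so the groups overlapped at Cdh1-intact array 2. No source used here places its probes inside or outside the trapped stretch, so these levels check no label.

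Ceramide is built in the endoplasmic reticulum. Serine palmitoyltransferase joins serine to a fatty acyl-CoA, and the ceramide synthases attach a second fatty acid, each preferring its own chain length. Ceramide can then be turned into sphingomyelin or glycosphingolipids, phosphorylated, or cut by ceramidases to sphingosine. Sphingosine kinases convert sphingosine to sphingosine-1-phosphate, which the lyase destroys irreversibly. In lymphocytes ceramide is known as a lipid of stress and death signalling and sphingosine-1-phosphate as the ligand that guides cells out of marrow and lymphoid organs.

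Promoters are shown for the 2 members whose groups did not overlap, Cers4 and Sphk2. That of the ceramide synthase gene Cers2 was picked for its E-box, a motif that MYC family proteins such as N-myc can bind. Cers6, not shown, also holds an E-box, 22 bases before the start. N-myc drove the leukaemia in both groups. Each sequence is the 250 bases before a RefSeq transcript start in GRCm38.p6, written 5′ to 3′ on the gene's strand. The searched motifs were the E-box CACGTG, the GC box GGGCGG, the CCAAT box CCAAT and the AP-1 site TGANTCA, on both strands, and capitals mark every match.
Cers4, chr8:4493155-4493404, plus strand: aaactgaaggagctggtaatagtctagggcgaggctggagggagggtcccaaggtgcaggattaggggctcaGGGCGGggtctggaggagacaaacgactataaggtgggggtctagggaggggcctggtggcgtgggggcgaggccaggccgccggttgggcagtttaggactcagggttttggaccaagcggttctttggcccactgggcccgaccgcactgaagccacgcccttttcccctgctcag
Sphk2, chr7:45715208-45715457, minus strand: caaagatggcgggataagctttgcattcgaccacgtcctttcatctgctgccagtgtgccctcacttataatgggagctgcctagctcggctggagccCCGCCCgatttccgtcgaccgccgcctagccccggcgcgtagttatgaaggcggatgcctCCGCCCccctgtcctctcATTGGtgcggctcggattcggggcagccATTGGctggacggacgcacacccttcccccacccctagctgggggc
Sphk2, chr7:45718003-45718252, minus strand: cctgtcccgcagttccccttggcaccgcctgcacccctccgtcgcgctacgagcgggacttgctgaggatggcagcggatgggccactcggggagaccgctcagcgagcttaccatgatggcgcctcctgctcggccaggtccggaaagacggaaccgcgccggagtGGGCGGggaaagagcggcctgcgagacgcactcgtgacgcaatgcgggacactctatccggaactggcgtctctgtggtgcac
Cers2, chr3:95314940-95315189, plus strand: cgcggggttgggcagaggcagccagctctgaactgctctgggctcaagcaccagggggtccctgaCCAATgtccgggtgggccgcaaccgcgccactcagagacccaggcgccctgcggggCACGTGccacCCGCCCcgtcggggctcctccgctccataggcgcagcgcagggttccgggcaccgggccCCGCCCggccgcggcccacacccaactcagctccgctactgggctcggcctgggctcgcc
The Cers4 promoter held 1 match, a GC box 178 bases before the start. The Sphk2 promoters held 2 GC boxes with 2 CCAAT boxes, and 1 GC box. The E-box of Cers2 lay 129 bases before the start, beside 2 GC boxes and 1 CCAAT box. Cers2 has a second RefSeq promoter, not shown, with 0 matches to any of the 4 motifs. RefSeq gave a promoter for 9 of the 10 members, 15 in all, several of which overlap. The same 250 bases were searched in all 32851 promoters of the table. An E-box stood in 4 of the 15 member promoters, those of Cers2, Cers6 and Sphk1, and in 6.02% of all promoters. A GC box stood in 8 of the 15, from 7 genes, and in 32.7% of all. A CCAAT box stood in 7, from 6 genes, and in 33.8% of all. An AP-1 site stood in 2, both of Sphk1, and in 6.75% of all. Sphk1 promoters overlap in pairs, so its E-box, its CCAAT box and its AP-1 site are each 1 site counted in 2 promoters. The counts of member promoters are therefore not counts of separate sites. The motifs searched did not overlap each other in the sequences shown. A match is a run of letters, and none of these arrays measured binding.

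The 6 arrays were not alike in cell type, and this touches several members. The labels call all samples B-cell leukaemia. On the array labelled Cdh1-intact 2 the mean log2 level of 9 measured B-lineage markers (of 10 listed) was 4.80, against 9.46 and 9.91 on the other Cdh1-intact arrays and 9.23 to 9.64 in Cdh1-deficient cells. The B-cell receptor gene Cd79b was 4.35 there and 11.60 to 12.47 on the other 5 arrays. The mean of 9 measured T and NK markers (of 10 listed) was 5.23, 9.89 and 6.72 in Cdh1-intact cells and 4.90 to 4.91 in Cdh1-deficient cells. The neutrophil list (9 of 10 measured) ranged from 6.16 to 10.48 in Cdh1-intact and from 9.55 to 11.61 in Cdh1-deficient samples. Monocyte and macrophage markers (8 of 10 measured) ranged from 5.13 to 7.45 and from 6.16 to 6.65, and erythroid markers (7 of 10 measured) from 5.75 to 7.24 and from 5.73 to 6.43. Of the T and NK markers, 1 lay below every array's lower quartile (3.75 to 3.83) on all arrays and 2 did so on all Cdh1-deficient arrays. In the other lists the count on all arrays was 0, or 1 for the erythroid list. For many of the genes below the difference is therefore also given without Cdh1-intact array 2. In RNA from a sorted population, fewer cells of a type and less RNA per cell cannot be told apart.

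No gene of the array passed the comparison between groups. With limma, a linear model with moderated variances, 0 of 18193 genes (0%) reached the threshold of 0.05 after Benjamini-Hochberg adjustment, with 0.849 as the smallest adjusted p. Before adjustment 1000 genes (5.50%) lay under 0.05. Of the 10 members 6 had a higher mean in Cdh1-deficient cells, where 50.9% of all genes did. Their median log2 difference was 0.06, beside 0.0034 over all genes. The groups did not overlap for 2 of the 10 members, Cers4 and Sphk2, where 11.7% of all genes did not overlap, 5.09% with the Cdh1-deficient arrays lower and 6.65% with them higher. These shares set the scale for single values and nothing is concluded from the count. All values are log2 levels normalized by the authors, in which levels of different genes are not comparable because each probe set has its own response. Differences are Cdh1-deficient minus Cdh1-intact, with the moderated standard error (SE).

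**Figure D1:**
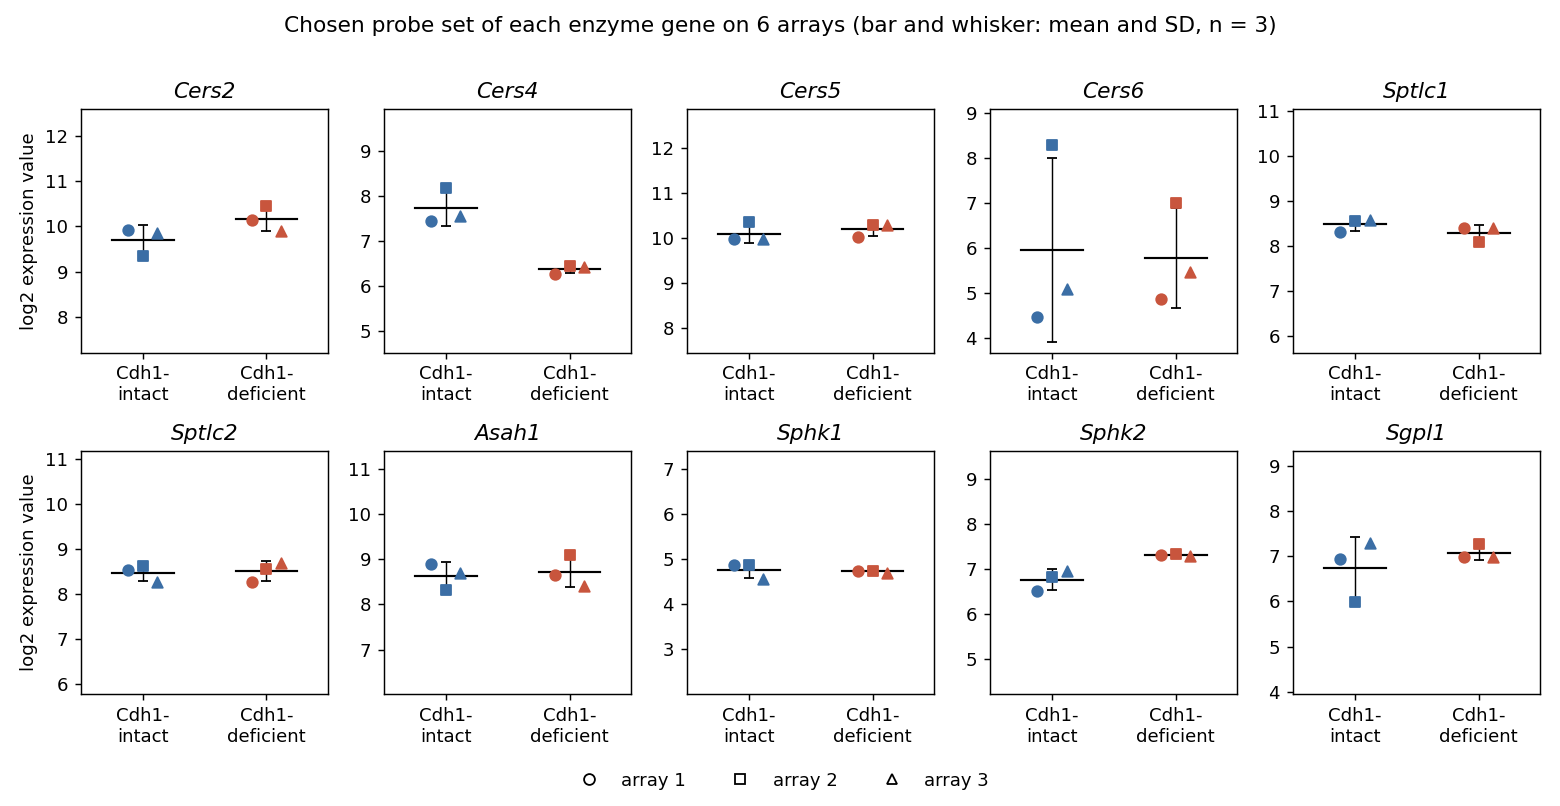
Log2 level of the chosen probe set of each of the 10 genes on every array (y axes all span the same range), blue for Cdh1-intact and red for Cdh1-deficient, with the mean and SD of 3 arrays. Cers4 lay at 7.45 to 8.17 in Cdh1-intact and 6.28 to 6.44 in Cdh1-deficient cells, Sphk2 at 6.51 to 6.97 and 7.28 to 7.34, and the groups of the other 8 genes overlapped.

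The ceramide synthases went separate ways. Cers4, which prefers saturated long-chain acyl-CoAs around stearoyl-CoA, read 7.45, 8.17 and 7.55 for Cdh1-intact arrays 1, 2 and 3 and 6.28, 6.44 and 6.42 in Cdh1-deficient cells. The lowest Cdh1-intact array lay clear of the highest Cdh1-deficient one, and the Cdh1-deficient arrays lay close together. The means were 7.73 ± 0.39 and 6.38 ± 0.09 (SD, n = 3 each), a difference of −1.34 (SE 0.21), or 2.54-fold on the linear scale. This is the value around which the group of enzymes was assembled, so it carries no test here. It stood 7th of 18193 genes by unadjusted p, and no gene passed. Without Cdh1-intact array 2, where Cers4 was highest, the difference was −1.12, and over the 6 fits that left out 1 array it ran from −1.48 to −1.12.

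All probe sets of Cers4 had the same order of groups. The second one read 6.74, 7.80 and 7.12 in Cdh1-intact cells and 6.28, 6.36 and 6.05 in Cdh1-deficient cells, a difference of −0.99. The third read 5.92, 6.82 and 6.36 against 4.93, 5.73 and 5.46, also −0.99. On each of the 3 probe sets Cdh1-intact array 2 was highest and the groups did not overlap. They stem from the same source sequence, so they repeat 1 measurement of the transcript and are not independent of each other. The mean of the 3 gave −1.11.

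T and NK markers moved with Cers4 across the groups. Their list mean was above all Cdh1-deficient arrays on each Cdh1-intact array, and it was highest on array 2, as was Cers4. Of the 9 measured markers 0 had a higher mean in Cdh1-deficient cells, where 50.9% of all genes did. The groups did not overlap for 6, with the Cdh1-deficient arrays lower, where this held for 5.09% of all genes. Markers of 1 cell type vary together, so the 6 are not separate observations. On Cdh1-intact array 1, where Cers4 lay at 7.45, the list mean was 5.23, and 7 of the 9 markers lay above every Cdh1-deficient array. The same held there for 6 of 7 erythroid, 6 of 8 monocyte and macrophage, 5 of 9 B-lineage and 0 of 9 neutrophil markers. The monocyte and macrophage mean (7.45) and the erythroid mean (7.24) of that array also lay above all Cdh1-deficient arrays. Among the T and NK markers counted there, Klrd1 read 3.33 on array 1, below that array's lower quartile (3.83). The share of all genes that lay above every Cdh1-deficient array on array 1 was not counted, so these counts have no scale. The part of T and NK cells in the Cers4 values was not tested.

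Cers2, the synthase of very long-chain ceramides, read 9.92, 9.35 and 9.86 in Cdh1-intact cells and 10.15, 10.45 and 9.90 in Cdh1-deficient cells. Cdh1-deficient array 3 lay among the Cdh1-intact values, and the lowest level was that of Cdh1-intact array 2. The means were 9.71 ± 0.31 and 10.17 ± 0.27 (SD, n = 3 each), a difference of 0.46 (SE 0.21) that did not pass (limma adjusted p = 0.849). Without Cdh1-intact array 2 it was 0.28. Cers2 lies on chromosome 3, where genes as a whole were higher. The 446 genes of that chromosome at or above the median level had a median difference of 0.31, with 85.9% of them higher, beside 0.09 and 62.5% for all 9097 such genes. Relative to the Cdh1-intact mean, the chromosome 3 median was 0.21, 0.37 and 0.36 for Cdh1-deficient arrays 1, 2 and 3. The median of all 9097 was 0.08, 0.07 and 0.11. The part of the chromosome in the Cers2 value was not tested. The opposite order of Cers4 and Cers2 across arrays gave a Pearson r of −0.82 over the 6 arrays, which are 2 groups of 3 and not a series of independent conditions.

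Cers5 and Cers6 both favour palmitoyl-CoA. Cers5 read 9.97, 10.35 and 9.99 in Cdh1-intact cells and 10.02, 10.29 and 10.30 in Cdh1-deficient cells, an overlap in full. The difference was 0.10 (SE 0.15), with a 95% interval from −0.27 to 0.47 before any correction for the number of genes. It ran from 0.034 to 0.22 when arrays were left out in turn, the highest value being that without Cdh1-intact array 2. Its other probe set ranged from 3.20 to 3.77, around the lower quartile of the arrays.

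Cers6 varied most of the 10 genes, and did so within both groups. It read 4.48, 8.28 and 5.10 in Cdh1-intact cells and 4.87, 7.01 and 5.47 in Cdh1-deficient cells. Array 2 of each group was high, and no label ties arrays of the same number to each other. The difference was −0.17 (SE 1.10) with a 95% interval from −2.88 to 2.53, so a change of several-fold in either direction was not detectable with these arrays. Without Cdh1-intact array 2 the difference was 0.99 (limma adjusted p = 0.839), and it ran from −0.91 to 0.99 when arrays were left out in turn. The high level on Cdh1-intact array 2 came with low B-lineage markers (mean 4.80), while on Cdh1-deficient array 2 these markers were at 9.26 and the neutrophil list at its highest, 11.61. The part of either cell type was not tested.

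**Figure D2:**
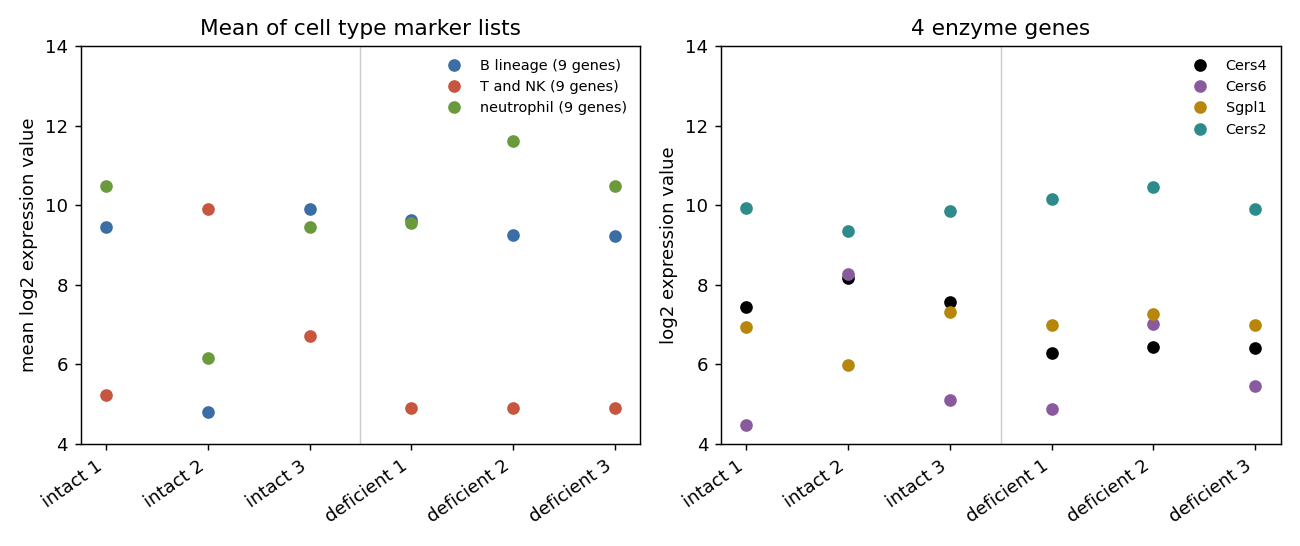
Left, mean log2 level of the B-lineage, T and NK, and neutrophil marker lists (9 genes each) on each array; right, log2 level of Cers4, Cers6, Sgpl1 and Cers2 on the same arrays, each point 1 array. On Cdh1-intact array 2 the B-lineage mean was 4.80 and the T and NK mean 9.89, with Cers4 (8.17) and Cers6 (8.28) at their highest and Sgpl1 (5.98) and Cers2 (9.35) at their lowest.

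The subunits of serine palmitoyltransferase, the enzyme of the first and rate-limiting step, differed little. Sptlc1, the subunit common to all forms of the enzyme, read 8.31, 8.56 and 8.57 in Cdh1-intact cells and 8.40, 8.10 and 8.40 in Cdh1-deficient cells. The groups overlapped, with Cdh1-deficient array 2 lowest. The difference was −0.18 (SE 0.14), with a 95% interval from −0.52 to 0.16. Its second probe set differed by 0.26, with levels of 7.13 to 7.51 and 7.28 to 7.78, so the probe sets disagreed in sign, and the remaining 2 lay at 4.76 to 4.97 and 4.32 to 4.51 with differences of 0.0098 and −0.016. Sptlc1 lies on chromosome 13, whose 334 genes at or above the median level had a median of −0.25 on Cdh1-deficient array 2 relative to the Cdh1-intact mean, against 0.07 and 0.10 on the other Cdh1-deficient arrays. All 9097 genes at or above the median level had medians of 0.08, 0.07 and 0.11 on Cdh1-deficient arrays 1, 2 and 3. The part of chromosome 13 in the low Sptlc1 value was not tested.

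Sptlc2, a catalytic subunit, read 8.54, 8.62 and 8.26 in Cdh1-intact cells and 8.28, 8.56 and 8.70 in Cdh1-deficient cells. The groups overlapped and differed by 0.04 (SE 0.16, 95% interval −0.35 to 0.43). Chromosome 12, which holds Sptlc2, had a median of 0.34 over 346 genes on Cdh1-deficient array 3, where Sptlc2 was highest. Its median was 0.05 and 0.08 on Cdh1-deficient arrays 1 and 2. Over all 9097 genes at or above the median level these arrays had 0.08 and 0.07, and array 3 had 0.11. The part of chromosome 12 was not tested. Of the other Sptlc2 probe sets, 1 read 7.40 for Cdh1-intact array 1 against 6.19 to 6.43 for the rest (difference −0.41), and the other differed by −0.05.

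Asah1 encodes acid ceramidase, which frees sphingosine from ceramide in lysosomes. Its single probe set read 8.90, 8.32 and 8.70 in Cdh1-intact cells and 8.65, 9.09 and 8.42 in Cdh1-deficient cells. The groups overlapped, with a difference of 0.08 (SE 0.23, 95% interval −0.49 to 0.64). The direction turned without Cdh1-intact array 2 (−0.08) and without Cdh1-deficient array 2 (−0.11).

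The sphingosine kinases differed from each other in their values. Sphk2, the kinase found in nucleus and mitochondria as well as cytoplasm, read 6.51, 6.83 and 6.97 in Cdh1-intact cells and 7.32, 7.34 and 7.28 in Cdh1-deficient cells. All Cdh1-deficient arrays lay above the Cdh1-intact ones and within a narrow range. The means were 6.77 ± 0.24 and 7.31 ± 0.03 (SD, n = 3 each), a difference of 0.55 (SE 0.14), or 1.46-fold, that did not pass (limma adjusted p = 0.849). It stayed between 0.42 and 0.65 with any 1 array left out and was 0.58 without Cdh1-intact array 2. It rested on 1 probe set, whose suffix marks a match to several transcripts of a gene. The second probe set of Sphk2 read 5.10, 5.10 and 5.02 against 5.27, 4.96 and 5.09, a difference of 0.03, and the mean of both gave 0.29.

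Sphk1, the kinase that growth factors activate at the plasma membrane, differed little between the groups. Its chosen probe set read 4.86, 4.86 and 4.55 in Cdh1-intact cells and 4.74, 4.75 and 4.69 in Cdh1-deficient cells. All of these levels lay below the medians of the arrays (5.07 to 5.13), where a change would be hard to see. The difference was −0.03 (SE 0.12, 95% interval −0.32 to 0.27). The other probe set lay at 3.46 to 3.55 and 3.36 to 3.46, below the arrays' lower quartiles. There the groups did not overlap, with a difference of −0.08 at a level near the floor of the arrays.

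Sgpl1, the lyase that ends the pathway, read 6.94, 5.98 and 7.31 in Cdh1-intact cells and 6.99, 7.28 and 6.98 in Cdh1-deficient cells. Cdh1-intact array 2 was about 1 log2 unit below the rest, which overlapped. The difference was 0.34 (SE 0.35, 95% interval −0.51 to 1.19), and −0.04 without that array. Its other probe set lay at 3.45 to 3.86 and differed by 0.07.

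**Figure D3:**
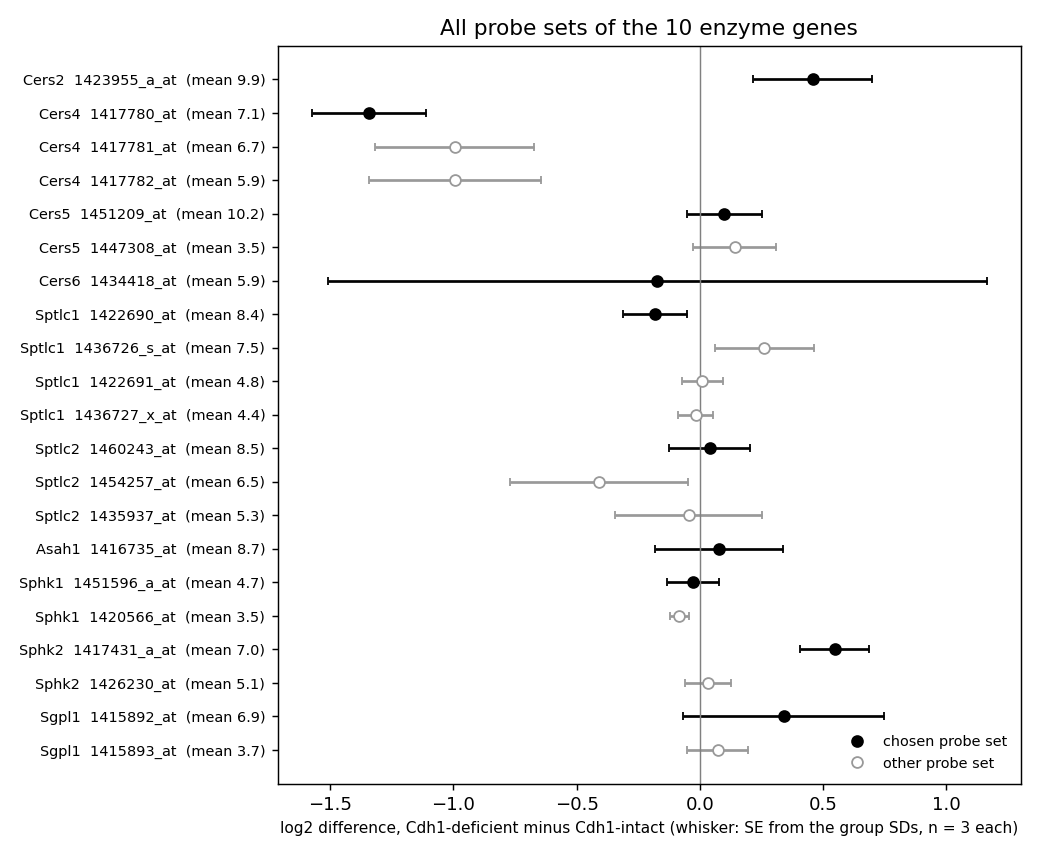
Log2 difference (Cdh1-deficient minus Cdh1-intact) of all 21 probe sets of the 10 genes, with a standard error from the group SDs of 3 arrays each; filled points are the chosen probe sets, and the mean level over 6 arrays stands beside each name. The 3 probe sets of Cers4 lay at −1.34, −0.99 and −0.99, while those of Sphk2 lay at 0.55 and 0.03.

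Leaving out single arrays separated the members into those whose difference kept its sign and those that turned. Cers2, Cers4, Cers5, Sptlc1 and Sphk2 kept their sign in each of the 6 fits. Cers6, Sptlc2, Asah1, Sphk1 and Sgpl1 turned in at least 1 of them. Cdh1-intact array 2 held the lowest value of Cers2, Asah1 and Sgpl1 and the highest of Cers4, Cers5 and Cers6. Without it 6 of the 10 members were higher in Cdh1-deficient cells and their median difference was 0.07, close to the values with all arrays.

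**Figure D4:**
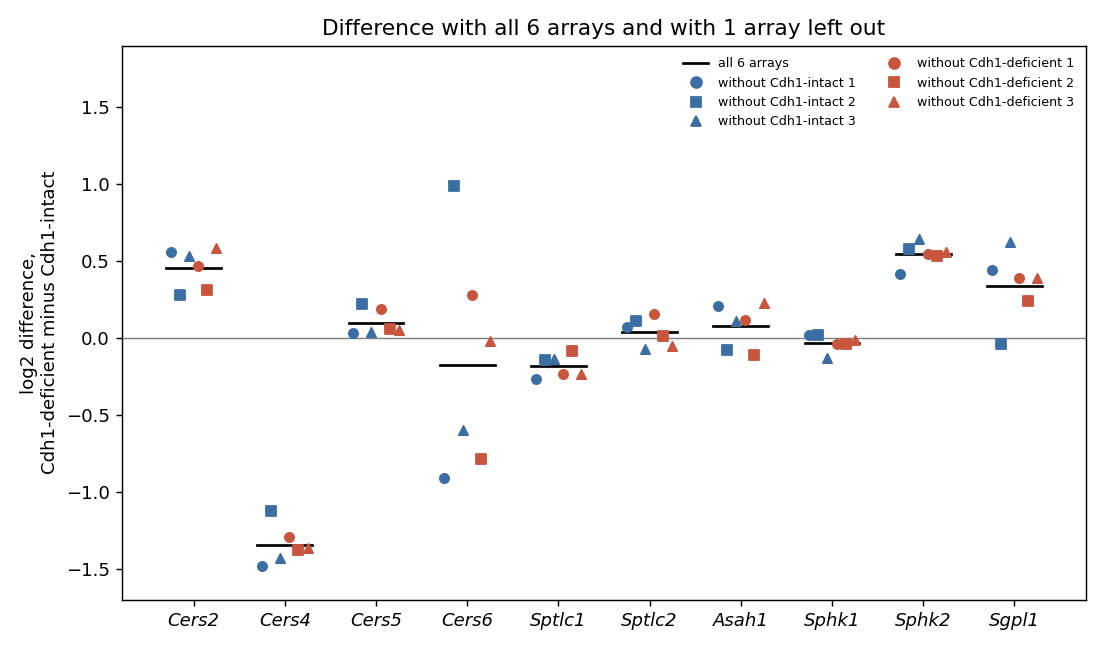
Log2 difference of each member with all 6 arrays (black bar) and with 1 array left out (points; blue for a Cdh1-intact and red for a Cdh1-deficient array, shape for its number). Cers4 stayed between −1.48 and −1.12 and Sphk2 between 0.42 and 0.65, while Cers6 ran from −0.91 to 0.99.

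By rule the genes most like Cers4 over the 6 arrays were named by Pearson's r from 8832 genes, those at or above the median level without predicted or numbered symbols. The highest were the chromatin-binding bromodomain gene Brwd1 (r = 0.988), the mitochondrial thiolase gene Acaa2 (0.984), the F-box gene Fbxo7 (0.984), the lipid kinase gene Pi4ka (0.980) and the zinc finger gene Zfp800 (0.969). Acaa2 read 10.13, 10.56 and 10.23 in Cdh1-intact cells and 9.79, 9.77 and 9.72 in Cdh1-deficient cells. Like Cers4 each of the 5 was highest on Cdh1-intact array 2, and their groups did not overlap. The most opposite were Alkbh4 (−0.982), the mitochondrial isoleucyl-tRNA synthetase gene Iars2 (−0.979), Wiz (−0.978), Dr1 (−0.978) and the transcription factor subunit gene Gtf3c2 (−0.974). Alkbh4, Dr1 and Gtf3c2 all lie on chromosome 5. The level of that chromosome as a whole was not examined here, and its part in their values was not tested. With 2 groups and 6 arrays any gene whose groups differ in the same way scores high, so these values rank likeness and carry no test. Among the other members r with Cers4 ran from −0.82 for Cers2 and −0.79 for Sphk2 to 0.61 for Sptlc1.

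The rest of the pathway was read from lists by role, apart from the 10 members. Of 77 listed genes 72 were measured, 0 passed the limma test, 38 were higher and 34 lower in Cdh1-deficient cells. The median difference was 0.02, beside 0.0034 over all genes. Groups did not overlap for 10 of the 72 (13.9%, beside 11.7% of all genes), 6 with the Cdh1-deficient arrays higher and 4 lower. Cdh1-intact array 2 was the highest or lowest array for 42 of the 72 genes (58.3%), where it was so for 45.8% of all genes. Without that array 44 of the 72 were higher and the median was 0.05.

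Upstream of the ceramide synthases little separated the groups. Of the serine palmitoyltransferase regulators and the next enzyme, 5 of 7 were measured, 2 higher and 3 lower, with a median of −0.02. Ormdl1, a membrane inhibitor of the transferase, went from 9.59 ± 0.22 to 9.25 ± 0.11 (SD, n = 3 each), with a difference of −0.34 (SE 0.14) and an overlap between groups. The alternative subunit gene Sptlc3 differed by −0.11 and the small activating subunit gene Sptssa by −0.02. Of the desaturases and remaining synthases 4 of 5 were measured, 2 in each direction. Fa2h, which hydroxylates the fatty acid of ceramide, differed by −0.24, and by −0.096 without Cdh1-intact array 1. The desaturase gene Degs1 differed by 0.22, but by 0.021 without Cdh1-deficient array 2 and by 0.066 with its probe sets averaged. Degs2 differed by −0.05.

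Genes that lengthen the fatty acids used by the ceramide synthases were 6 higher and 5 lower of 11, with a median of 0.05. Elovl6, which elongates palmitoyl-CoA to stearoyl-CoA, read 8.62, 8.90 and 9.24 in Cdh1-intact cells and 9.38, 9.61 and 9.45 in Cdh1-deficient cells. These groups did not overlap, with a difference of 0.56 (SE 0.18), but the mean of its probe sets gave 0.06. Elovl6 lies on chromosome 3, like Cers2. Tecr, the reductase of the elongation cycle, also did not overlap, going from 10.36 ± 0.11 to 10.57 ± 0.04 (SD, n = 3 each). Hacd1, a dehydratase of the same cycle, differed by 1.94 (SE 1.29) but Cdh1-intact array 2 read 4.89 against 8.00 to 10.18 on the others. Without that array it differed by 0.53.

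Of the other ceramidases and ceramide kinase 1 of 5 was higher and 4 lower, with a median of −0.11. Cerk, the kinase that makes ceramide-1-phosphate, read 8.92, 8.01 and 8.66 in Cdh1-intact cells and 8.21, 7.22 and 6.97 in Cdh1-deficient cells. The groups overlapped at Cdh1-intact array 2 and Cdh1-deficient array 1. The difference was −1.07 (SE 0.39), and −1.33 without Cdh1-intact array 2. Acer2, a Golgi ceramidase, read 5.51, 5.55 and 5.88 against 5.93, 6.04 and 6.11, a difference of 0.38 (SE 0.14) without overlap. Asah2, the neutral ceramidase gene, differed by −0.11.

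Sphingomyelin genes were mostly higher, 8 of 9, with a median of 0.28. Without Cdh1-intact array 2 these figures were 6 of 9 and 0.11. Sgms1, the main Golgi sphingomyelin synthase, read 8.84, 8.33 and 8.00 in Cdh1-intact cells and 8.71, 9.07 and 9.36 in Cdh1-deficient cells, an overlap at Cdh1-intact array 1, with a difference of 0.66 (SE 0.27), and averaging its probe sets gave 0.34. Smpdl3b, a membrane phosphodiesterase related to the sphingomyelinases, differed by 0.75 (SE 0.48) and the neutral sphingomyelinase gene Smpd2 by 0.28 (SE 0.21). Neither pair of groups separated. Without Cdh1-intact array 2 these were 0.39 and 0.11, and without Cdh1-intact array 1 they were 1.19 and 0.50. The 1 lower gene, the phosphodiesterase gene Smpdl3a, was named after its values were seen. It read 8.21, 11.15 and 7.72 against 7.46, 8.53 and 7.79, an overlap, with a difference of −1.10 (SE 0.92). Without Cdh1-intact array 2, its highest, the difference was −0.036. Of the lipid transfer genes 2 of 4 were higher, among them the ceramide transfer protein gene Cert1, at 0.34 (SE 0.17), and Cptp, which carries ceramide-1-phosphate, at 0.24 (SE 0.17). Plekha8, which carries glucosylceramide, lay at 8.70 on Cdh1-intact array 2, 5.63 on array 3 and 3.40 to 4.07 on the other 4. Its difference of −2.15 (SE 1.27) was −0.75 without array 2.

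Glycosphingolipid synthesis genes were 5 higher and 5 lower of 10, with a median of 0.02. B4galt6, 1 of 2 lactosylceramide synthases listed, read 4.54, 4.29 and 4.67 in Cdh1-intact cells and 5.10, 5.96 and 6.02 in Cdh1-deficient cells. The groups did not overlap, with a difference of 1.19 (SE 0.28), and the mean of its probe sets gave 0.55. Its Cdh1-intact levels lay below the medians of the arrays (5.07 to 5.13), and Cdh1-deficient array 1 was near them. Ugcg, which makes glucosylceramide and so opens this branch, read 8.10, 8.10 and 7.56 against 8.12, 8.42 and 8.54, a difference of 0.44 (SE 0.20) with a gap between groups far narrower than their spread. Averaging the probe sets of Ugcg gave 0.017, and the difference was 0.26 without Cdh1-intact array 3. B4galnt1, which builds complex gangliosides, went the other way, from 9.19 ± 0.29 to 8.80 ± 0.11 (SD, n = 3 each). Its groups did not overlap, but the lowest Cdh1-intact array (8.94) lay barely above the highest Cdh1-deficient one (8.93). The difference of B4galnt1 was −0.38 (SE 0.17), −0.22 without Cdh1-intact array 2 and 0.05 with its probe sets averaged. Of the lysosomal breakdown genes 10 of 12 were measured and 8 of these were lower, with a median of −0.09; without Cdh1-intact array 2 it was 5 of 10 and 0.01. The saposin precursor gene Psap differed by 0.57 (SE 0.44), the sialidase gene Neu3 by −0.71 (SE 0.55) and the arylsulfatase gene Arsa by −0.25 (SE 0.20). Psap was lowest and Neu3 highest on Cdh1-intact array 2, and without it the differences were 0.06 and −0.05.

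Genes that break down or export sphingosine-1-phosphate were 5 higher and 4 lower of 9, and the groups did not overlap for 4 of them, where 11.7% of all genes did not. Spns2, the transporter that releases sphingosine-1-phosphate from cells, read 5.05, 5.15 and 5.00 in Cdh1-intact cells and 5.42, 5.57 and 5.45 in Cdh1-deficient cells, a difference of 0.41 (SE 0.10). Plpp2, a lipid phosphate phosphatase, read 6.18, 6.36 and 6.13 against 5.88, 5.45 and 5.49, a difference of −0.61 (SE 0.15), while averaging its probe sets gave −0.33. Mfsd2b, the exporter of red cells and platelets, read 4.66, 4.62 and 4.61 against 4.14, 4.11 and 4.57, a difference of −0.36 (SE 0.15). Sgpp2, the fourth, a phosphatase gene outside the naming rule and named after its values were seen, differed by −0.13 at levels of 3.35 to 3.67, below the lower quartile of every array. The levels of Spns2 and Mfsd2b were near or below the median of the arrays (5.07 to 5.13).

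All 5 receptors for sphingosine-1-phosphate had a higher mean in Cdh1-deficient cells, with a median of 0.07, and 3 of 5 without Cdh1-intact array 2. S1pr1, the receptor of lymphocyte egress that the activation antigen CD69 removes from the surface, read 8.05, 4.48 and 8.01 in Cdh1-intact cells and 7.52, 8.33 and 7.40 in Cdh1-deficient cells. Apart from the low Cdh1-intact array 2 the levels overlapped. The difference was 0.91 (SE 1.01), and −0.28 without that array. S1pr4, a lymphoid receptor, differed by 0.40 (SE 0.43), or −0.03 without that array, and S1pr2 by 0.07 (SE 0.13). The probe sets of S1pr2 disagreed in size, since averaging them gave 0.40 and leaving out its shared-target probe set gave 0.74.

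**Figure D5:**
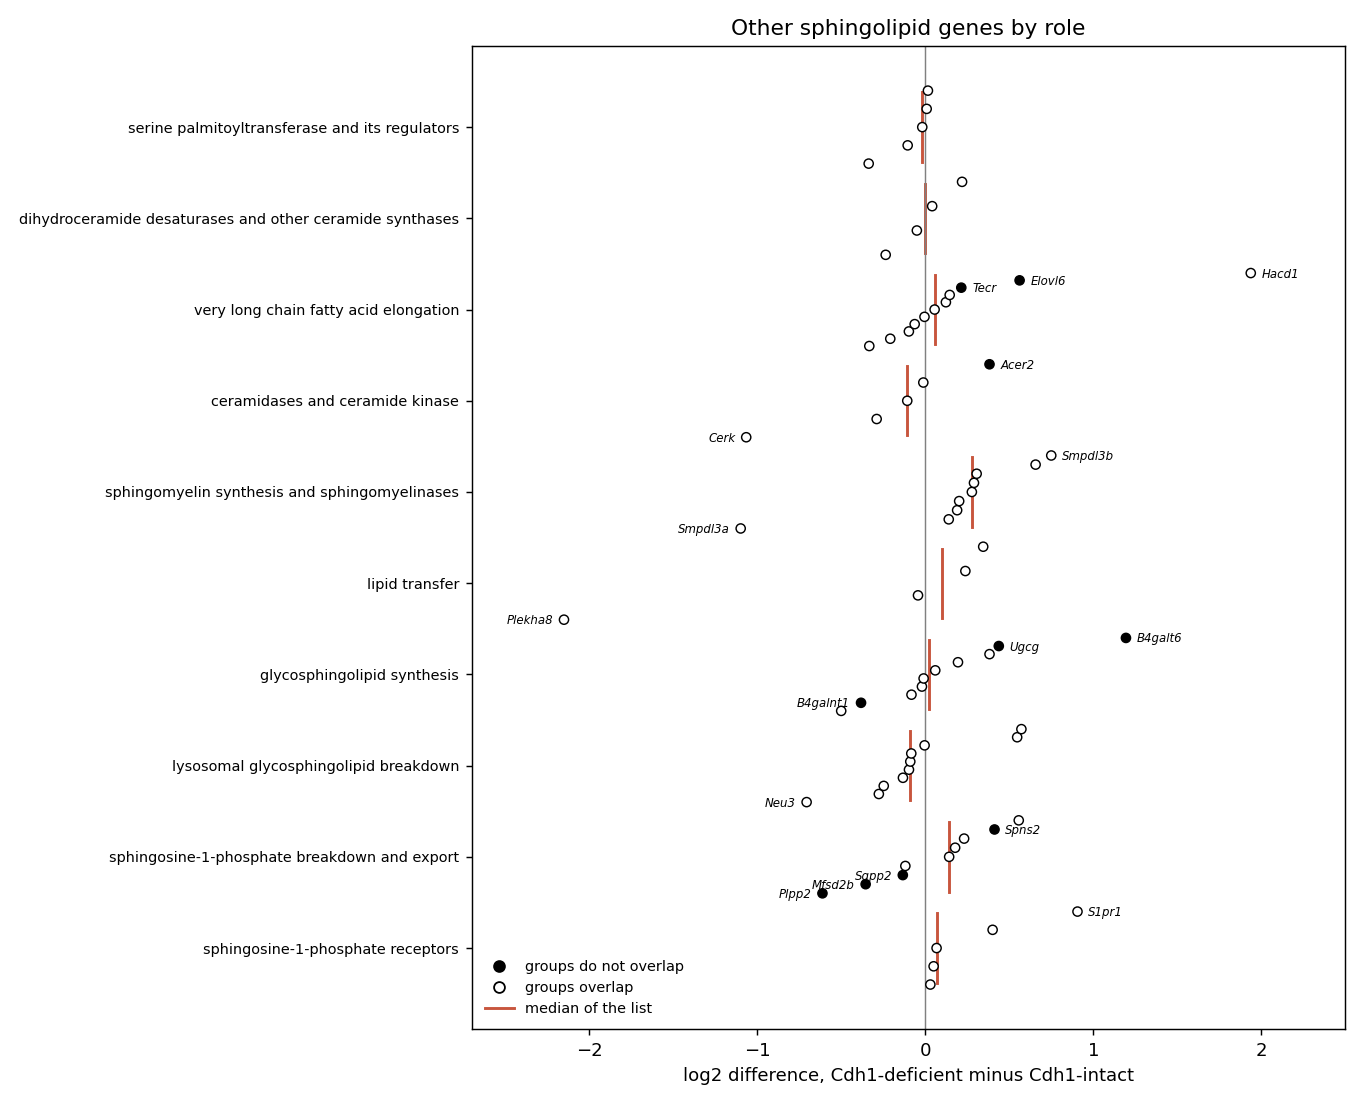
Log2 difference (Cdh1-deficient minus Cdh1-intact) of the 72 measured sphingolipid genes outside the 10 members, by role; filled points are genes whose groups did not overlap, and the red bar is the median of each list. List medians ran from −0.11 for ceramidases and ceramide kinase to 0.28 for sphingomyelin genes, and B4galt6 (1.19) had the largest difference of the 10 genes whose groups did not overlap.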

How the data were processed

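Gene expression was measured on 6 one-colour Affymetrix arrays, 3 per group, with groups and replicate numbers from the sample titles. RMA produced the log2 values that the authors deposited, as the submitters' processing notes state; the version and genome build are not given in the sources used here. RMA equalizes array distributions, so a change in total RNA per cell cannot be seen. Of 45101 probe sets 64 controls were left out, and 34945 carried 1 symbol in the platform annotation of 2016; 932 with several were not used. The probe set of highest mean represented each of 18193 genes. Cert1 was matched through its older symbol by gene identifier in RefSeq (GRCm38.p6).

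The comparison used the lmFit and eBayes functions of limma 3.58.1 (R 4.3.3), two-sided and adjusted by Benjamini-Hochberg over all genes with a threshold of 0.05, and the test was tried on simulated data. With 3 arrays against 3 a permutation test cannot go below 0.1, so none was used. The number of arrays limits the precision. Per the labels' protocols cells were sorted from each moribund mouse, but nothing ties the arrays to separate donors. The p-values therefore measure only the spread between these arrays. That spread includes the differences in cell type markers between arrays given above, and how much of the rest is technical is not known. Members, lists and alternatives were chosen with earlier results of these data known. Genes named were the members, Fzr1, up to 3 genes per role list by unadjusted p, the 5 most like and 5 most opposite to Cers4, and marker genes where an array stands apart. Alternatives were other normalizations, level filters, probe set choices, trend and robust estimation, array weights, the replicate number as a block and each array left out. Same-numbered arrays deviated from their group means with r = −0.14, 0.01 and 0.04 across genes, so the numbers do not pair the arrays.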

Additional observations from a re-analysis of the deposited data

How the results depend on the processing

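Over 15 alternatives 0 genes passed in any. With each array left out, 5 to 7 members and 35 to 44 pathway genes were higher in Cdh1-deficient cells, the members' median ran from −0.013 to 0.17 and the pathway median from −0.010 to 0.051. The pathway median was 0.14 with probe sets below the median left out, beside 0.022. Of 583 values of 40 named genes under the alternatives 559 kept their direction, and 27 genes kept it in every alternative that gave a value. With quantile normalization Sptlc2 turned to −0.014. With the mean of all probe sets Sptlc1 turned to 0.019, Sptlc2 to −0.14, Asah2 to 0.019 and B4galnt1 to 0.052. With array weights Cers6 turned to 0.024, Asah1 to −0.040 and Sptssa to 0.071. With arrays left out in turn Sphk1 ran from −0.13 to 0.023, Cers6 from −0.91 to 0.99, Asah1 from −0.11 to 0.23, Sgpl1 from −0.040 to 0.62, Sptlc2 from −0.067 to 0.16, Sptssa from −0.13 to 0.13, Degs2 from −0.10 to 0.027, S1pr1 from −0.28 to 1.51, S1pr2 from −0.032 to 0.14 and S1pr4 from −0.026 to 0.77. Sphk2 was 0.033 without shared-target probe sets, a setting in which Cers2 has no value, and Sphk1 has none with the median filter. Without changing sign, the difference ran from −0.18 to −0.013 for Sptlc3, from 0.083 to 0.39 for Cptp and from −0.44 to −0.13 for Arsa with arrays left out, each weakest without Cdh1-intact array 1. The cause was not tested.

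Genes with an unadjusted p under 0.05 numbered 641 with probe sets below the median left out (fewer genes tested) and 442 to 1751 with 1 array left out, beside 1000 with all arrays. They were 442 without Cdh1-deficient array 3, 656 without Cdh1-deficient array 2 and 1751 without Cdh1-intact array 3. With the replicate block 975 had such a p and 0 passed, and the block changed no call. Signal near the lower quartile of the arrays limits Sgpp2 and the second probe sets of Cers5, Sphk1 and Sgpl1.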
